A study of Rattus norvegicus with 4 samples.

Results

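The cells described here are plasmacytoid dendritic cells (pDCs) of rat liver, 540 of the 35901 cell barcodes kept from 4 single-cell RNA sequencing libraries. A barcode was kept with at least 200 genes, at least 500 UMIs (unique molecular identifiers, each counted as 1 transcript) and at most 20% mitochondrial UMIs. To be a member, it needed a UMI of at least 3 of the 5 genes Siglech, Tcf4, Irf8, Spib and Runx2. A member also had no UMI of Clec9a, Xcr1, Cd79b, Ms4a1, Cd3e, Clec4f or Stab2, genes taken as marks of other liver cells. Cd79a, the 8th gene on that exclusion list, was not analysed here. The members were thus chosen by the UMI counts of these genes, whose values are given only as descriptions.

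All livers came from Lewis rats, 1 library per group. The naive liver had no preservation, the CS liver was held 4 h at 4 °C (cold storage, by the series description), the NEVLP2 liver was perfused 4 h at 37 °C, and the NEVLPcty liver was perfused likewise with IL-10 and TGF-β added. Both perfused livers therefore also received the perfusate, which by the labels was William's E medium with penicillin/streptomycin, pyruvate, glutamine, heparin, insulin, papaverine, human albumin, 1.25 mg hydrocortisone and 30 mL of leukoreduced Lewis red cells. The study was directed at liver-resident T cells, and the isolation of the cells, any enrichment and the digit in NEVLP2 are not given in the sources used here.

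With 1 library per group there is no test, and a difference between groups cannot be told apart from a difference between 2 animals or 2 preparations. Each interval below is an exact 95% interval, covers counting error only, and is binomial for a share and conditional binomial for a ratio. Levels are CPM, the UMIs of a gene summed over the members of a library, per 1000000 UMIs of those members. A ratio compares 2 libraries for genes with at least 50 member UMIs in the pair, and a gene is called 2-fold higher or lower (with no test) at a ratio of at least 2 or at most 0.5. No member barcode was shared between libraries, whereas 7 to 32 kept barcodes were shared by each pair of libraries.

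pDCs are bone marrow derived dendritic cells that sense viral nucleic acid with Toll-like receptors in endosomes and can secrete large amounts of type I interferon. Their identity is held by the transcription factor Tcf4 (E2-2), with Irf8, Spib, Runx2 and Bcl11a, and they keep a high level of Irf7, the factor that drives interferon gene transcription. In the liver, pDCs have been studied for roles in tolerance to grafts and in ischaemic injury, and TGF-β and IL-10 are both known to restrain them.

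The label held for the members with a Siglech UMI and not for the rest. Siglech encodes a Siglec family receptor of rodent pDCs, and it had a UMI in 60 of the 77 naive members. The CS liver had 108 such members of 119, the NEVLP2 liver 267 of 273 and the NEVLPcty liver 59 of 71. The 494 members with Siglech had the surface molecule Bst2 at 3396, 2297, 1675 and 1487 CPM in naive, CS, NEVLP2 and NEVLPcty. The adaptor Blnk was at 832, 1039, 896 and 1070.5 CPM. Ccr9, a gut and thymus homing receptor of pDCs, was at 207, 222, 142 and 89.8 CPM in the same cells, present in all 4 libraries. Ptcra, the pre-T-cell receptor alpha chain that pDCs also transcribe, was at 149, 186, 477 and 212 CPM. These 4 genes were not in the rule. Not every one of the 27 pDC genes among the features was present in the members with Siglech. Cox6a2 was at 0 in all 4 libraries, and Ly6d was at 0 in naive, CS and NEVLPcty. Lair1 was at 0 in NEVLP2 and NEVLPcty, and Gzmb in NEVLPcty.

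The 46 members without Siglech (17, 11, 6 and 12) had other lineages' transcripts. Ptcra was at 0 in 3 of the 4 libraries in these cells, and Blnk was at 35.3, 124, 0 and 82.8 CPM. Lyz2, the lysozyme of monocytes and macrophages, was at 10600.3 CPM in the naive cells without Siglech against 147 CPM in those with it. The NK granule protease Gzma reached 6996 CPM in NEVLP2, where the 6 cells also held the lymphatic and sinusoidal receptor Lyve1 at 2544 CPM. Ccl22, a chemokine of mature dendritic cells, was at 1643 CPM in the NEVLPcty cells without Siglech and at 2.5 CPM in those with it. Values are therefore given over all members, and again over the members with Siglech where that moves a gene's ratio by over 1.5 times or turns its direction or that of a list's median.

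**Figure D1:**
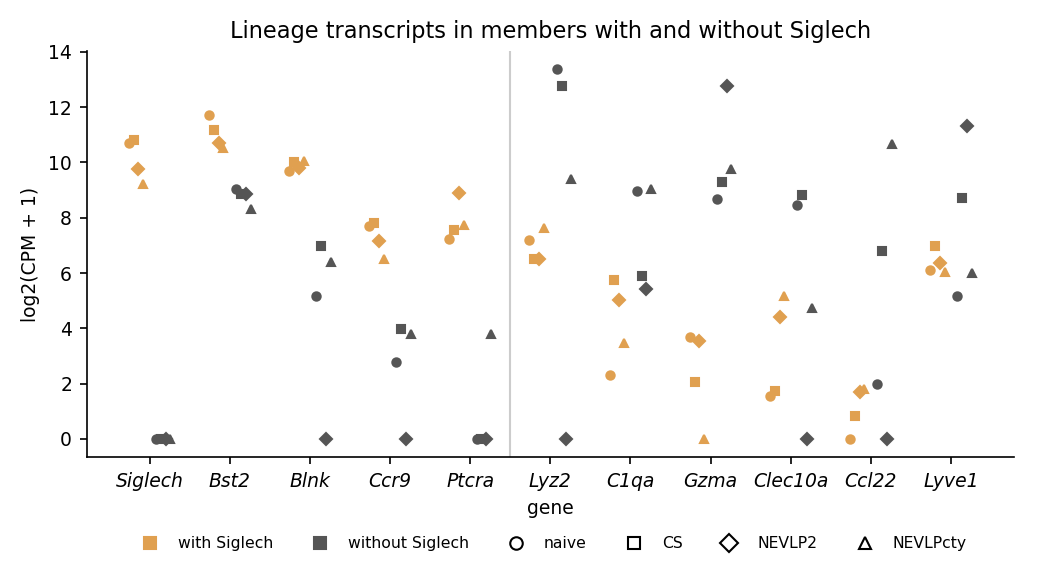
Levels of 11 genes, log2(CPM + 1), on the vertical axis in members with a Siglech UMI (orange) and without one (grey), 1 point per library with a shape for each. The pDC genes on the left, Siglech being the gene that splits the cells, are high in the orange points and the genes of other lineages on the right are mostly high in the grey points, where naive Lyz2 is at 10600.3 CPM.

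The count of markers set the edge of the group. Barcodes just outside, with 2 markers and no excluded gene, numbered 144, 201, 329 and 525, and their Siglech level was 0.509, 2.79, 6.35 and 0.268 CPM in naive, CS, NEVLP2 and NEVLPcty. Just inside, the members with exactly 3 markers numbered 17, 13, 21 and 16, with Siglech at 0, 72.9, 640 and 115 CPM. Members with all 5 markers numbered 59, 94, 183 and 41. Naive had 1 member with exactly 4 markers, while NEVLP2 had 69.

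The excluded genes also shaped the group, and most in CS. Of 308 CS barcodes with at least 3 markers, 189 (61.4%) had a UMI of an excluded gene, against 41.7% of 132 naive, 30.9% of 395 NEVLP2 and 36.6% of 112 NEVLPcty barcodes. Clec4f, the Kupffer cell lectin, was the gene in 104 of the CS barcodes, and 53 of the 64 CS barcodes with all 5 markers and Clec4f held it as a single UMI. Clec9a, a receptor of conventional type 1 dendritic cells (cDC1), came next in CS barcodes with all 5 markers, in 32 of 192. Xcr1, the other excluded cDC1 gene, was in 1 of those 192. Whether the barcodes with Clec9a were pDCs was not tested. Kupffer cell transcripts were highest over the CS barcodes, 15327 CPM summed over 8 markers against 2661 to 5636 CPM in the other libraries. The part of Kupffer cell RNA in the CS count was not tested. Without Clec4f among the excluded genes the CS share was 1.73% in place of 1.1%.

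As a share of kept barcodes, members were the least frequent in NEVLPcty. They made up 2.33% of kept barcodes in naive (77 of 3301, interval 1.85 to 2.91), 1.1% in CS (119 of 10798, 0.914 to 1.32), 2.68% in NEVLP2 (273 of 10186, 2.38 to 3.01) and 0.611% in NEVLPcty (71 of 11616, 0.478 to 0.770). The naive and NEVLP2 intervals overlap, and the CS and NEVLPcty intervals overlap neither these nor each other. Among barcodes with a UMI of Ptprc, which encodes the leukocyte antigen CD45, the shares were 4.97, 3.65, 7.92 and 3.30%. NEVLPcty is the lowest and NEVLP2 the highest over both denominators. The CS and NEVLPcty shares lie closer among Ptprc barcodes, at 109 of 2985 and 67 of 2030. No interval was computed there, so the order of these 2 libraries among Ptprc barcodes is not settled. With each barcode thinned to 1500 UMIs and shallower ones left out (792, 2388, 2787 and 1551 barcodes), the shares were 2.71, 1.93, 2.41 and 0.338%, so that naive was then above NEVLP2. The mix of other cells recovered from each liver sets both denominators.

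**Figure D2:**
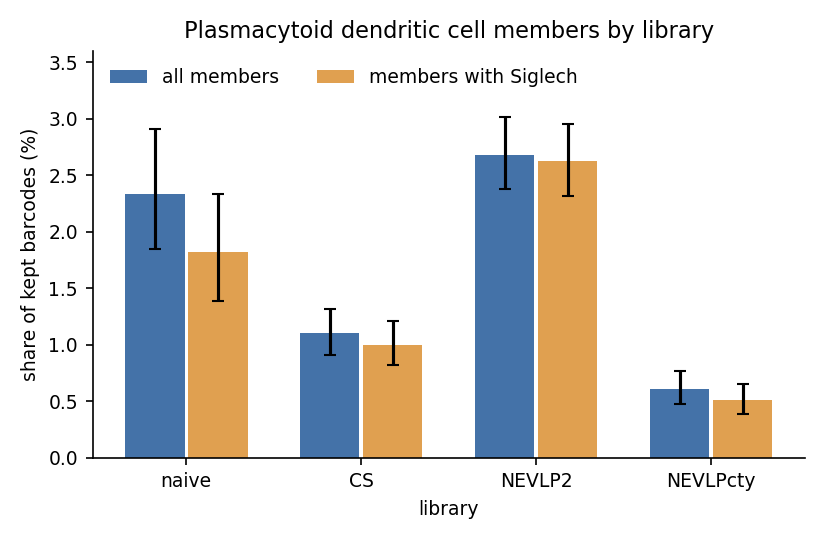
Members as a percentage of kept barcodes (vertical axis) in each library, for all members (blue) and for those with Siglech (orange), with exact binomial 95% intervals as error bars. NEVLP2 stands at 2.68% and NEVLPcty at 0.611%.

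Members were deeply read cells. Their median UMI counts were 17587, 12565, 13646 and 13112, against 3915, 4651, 3722 and 5347 over all kept barcodes, and their UMIs summed to 1358525, 1413091, 3584796 and 958560. Hepatocyte transcripts in the members ran at 3.69, 8.52, 10.9 and 7.01% of their level over all kept barcodes. That percentage, times a gene's level over all kept barcodes, is used below as the free RNA level of the gene. In the members with Siglech 6 of 9 B cell markers were at 0 in all 4 libraries, Pax5 and Ebf1 among them, and the list summed to 1264 to 1635 CPM, most of it Ighm. The T cell factor Bcl11b was at 0 too, and Cd3e was at 0 by the rule. Over all kept barcodes the 7 T cell markers summed to 723, 164, 180 and 150 CPM. In the members with Siglech they summed to 312, 249, 245 and 324 CPM, most of it Cd3g, above all kept barcodes except in naive. Summed in the same cells, 9 monocyte markers ran from 376 to 467 CPM and 8 NK markers from 54.9 to 154 CPM. The 8 Kupffer cell markers, with Clec4f at 0 by the rule, summed to 18.7, 169, 105 and 33.7 CPM, higher in CS and NEVLP2. The 11 endothelial markers summed to 1000.4, 1708, 2293 and 1098 CPM, with the sinusoidal gene Stab2 at 0 by the rule and Kdr alone at 900.2, 1312, 2109.9 and 712 CPM. The part of these cells' RNA in the differences below was not tested.

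The 5 genes of the rule, given as a description, were lower in the perfused livers except Irf8. Siglech was at 1241, 1614, 854 and 494 CPM in naive, CS, NEVLP2 and NEVLPcty. Tcf4 was at 422, 593, 349.8 and 228 CPM. Spib, an Ets family factor, was at 305, 391, 161 and 154 CPM, and its levels in both perfused livers were alike. Runx2, which acts in the exit of pDCs from bone marrow, was at 347, 323, 224 and 196 CPM. Irf8 ran only from 1998 to 2524 CPM.

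Of 27 pDC genes among the features, the rule's 5 included, 18 were measured between CS and naive and none was 2-fold higher or lower, where 2.5% of all 5677 measured genes were 2-fold higher and 2.77% lower. Between NEVLP2 and CS 3 of 21 were higher (Gzmb, Lag3, Ptcra) and 2 lower (Smim5 and the rule's own Spib), against 8.76% and 12.3% of 6829 genes. Between NEVLPcty and NEVLP2 none of 21 was higher and 3 were lower (Gzmb, Irf7, Ptcra), against 5.2% and 5.14% of 6426 genes. With Siglech required the counts were 2 higher and 4 lower of 20, and 0 higher and 2 lower of 20, in these 2 comparisons, where 8.53% and 12.2% and then 4.36% and 5.25% of all genes were called. Between NEVLP2 and CS 2 of the 4 lower genes there were genes of the rule, by which the cells were chosen.

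Ptcra was one of those with calls in both, at 112, 168, 471 and 179 CPM. It was 2.81-fold higher (2.45 to 3.23) in NEVLP2 than in CS and 2.62-fold lower (2.24 to 3.09) in NEVLPcty than in NEVLP2. Bcl11a, the factor that pDCs and B cells share, was at 166, 202, 382 and 319 CPM, higher in both perfused livers with the NEVLP2 ratio over CS at 1.89 (1.66 to 2.15). Pacsin1, an endocytic adaptor tied to interferon production, followed at 92.7, 155, 271 and 203 CPM. Smim5 ran the other way, at 194, 278, 62.8 and 83.5 CPM, and was 4.43-fold lower (3.75 to 5.24) in NEVLP2 than in CS. Lag3, an inhibitory receptor, was at 10.3, 17.7, 54.1 and 31.3 CPM and 3.06-fold higher (2.01 to 4.84) in NEVLP2 than in CS. NEVLP2 thus held more Ptcra and Lag3 and less Smim5 than CS.

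The growth and lineage factors of pDCs differed in both directions. Flt3, the receptor for the cytokine on which dendritic cells depend, was at 75.1, 103, 46.9 and 58.4 CPM and 2.2-fold lower (1.75 to 2.77) in NEVLP2 than in CS. Zeb2, a repressor needed for pDC commitment, was at 188, 122, 151 and 67.8 CPM and 2.23-fold lower (1.72 to 2.92) in NEVLPcty than in NEVLP2. Spi1 (PU.1), a myeloid factor, was at 158, 113, 134 and 394 CPM, which is 2.95-fold higher (2.57 to 3.38) in NEVLPcty than in NEVLP2.

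Of the nucleic acid sensing genes, 14 measured between CS and naive and 15 in the other comparisons, none was 2-fold higher or lower between CS and naive or between NEVLP2 and CS, and 1 (Irf7) was lower between NEVLPcty and NEVLP2. With Siglech required 1 of 15 was lower between NEVLP2 and CS. Of all genes, 2.5 to 12.3% were called in each direction of these comparisons. Tlr7, the receptor for single-stranded RNA, was at 209, 272, 168 and 174 CPM. Unc93b1, its chaperone, was at 774, 916, 698 and 445 CPM, lowest in NEVLPcty. Pld4, an endosomal nuclease that limits nucleic acid sensing, was at 858, 909, 505 and 391 CPM. Myd88, the adaptor of these receptors, was at 235, 218, 418 and 262 CPM, highest in NEVLP2. Tlr9 had 3 to 11 UMIs per library, too few for a ratio.

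Interferon transcripts themselves were nearly absent. In the members, Ifna2, Ifna4, Ifna5, Ifna11, Ifna16l1, Ifne, Ifnk, Ifnl1 and Ifnl3 had 0 UMIs in all 4 libraries. A count of 0 does not exclude a low level. Where a ratio below involves a count of 0, that count was set to a floor of 3 UMIs. Ifnb1 (interferon-β) had 1 UMI in naive, 0 in CS and in NEVLPcty, and 23 in NEVLP2, all 23 in 1 cell. Outside that cell interferon transcripts were at most 1 UMI per library.

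Several genes that respond to type I interferon were higher in CS than in naive, and several were lower in NEVLPcty than in NEVLP2. Of the list's 36 genes among the features, 24 were measured between CS and naive, and 7 were 2-fold higher (Ifitm3, Isg15, Usp18, Eif2ak2, Oasl, Isg20, Ifi27) and 1 lower (Gbp2), with a median log2 ratio of 0.45 against 0.13 over all genes. Of all 5677 genes measured there, 2.5% were higher and 2.77% lower. Over members with Siglech the count was 7 higher and 0 lower of 14, with a median of 0.83, where 2.51% and 1.23% of all 5139 genes were called. Between NEVLP2 and CS 0 of 21 were higher and 7 lower (Mx2, Sp100, Epsti1, Ifit2, Isg20, Ifitm3, Mx1), with a median of -0.81 against 0.02 over all genes. There 8.76% and 12.3% of all genes were called. Over members with Siglech 1 of 21 was higher and 9 were lower (median -0.60), where 8.53% and 12.2% of genes were called. Between NEVLPcty and NEVLP2 1 of 19 was higher (Lgals3bp) and 10 were lower (Isg15, Mx1, Irf7, Eif2ak2, Gbp2, Dhx58, Oasl, Usp18, Stat2, Parp14), with a median of -1.05 against -0.06 over all genes. There 5.2% and 5.14% of all genes were called. Over members with Siglech 0 of 18 were higher and 11 lower (median -1.54), where 4.36% and 5.25% of genes were called. The comparisons share libraries, so a high CS or NEVLP2 value enters 2 of them.

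The direction of NEVLP2 against naive turned with the cells without Siglech. Over all members 2 of 22 were higher and 8 lower (median -0.54), where 13.3% and 11.9% of 6755 genes were called. In those with Siglech 7 of 18 were higher and 3 lower (median 0.40), where 13.7% and 10.6% were called. NEVLPcty against CS had 1 of 15 higher and 10 lower (median -1.46), where 8.05% and 12.3% of 5305 genes were called. Over members with Siglech it was 0 higher and 10 lower of 12 (median -1.76), where 7.39% and 12.1% were called.

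Irf7, the factor that drives interferon transcription, was one of them. Its UMIs numbered 494, 833, 1119 and 52, or 364, 589, 312 and 54.2 CPM, in the order naive, CS, NEVLP2, NEVLPcty, seen in 67, 109, 218 and 30 members. CS was highest and NEVLPcty lowest, and the counting intervals of naive (332 to 397) and NEVLP2 (294 to 331) do not overlap. The CS over naive ratio was 1.62 (1.45 to 1.82), NEVLP2 was 1.89-fold lower (1.72 to 2.07) than CS, and NEVLPcty was 5.75-fold lower (4.36 to 7.75) than NEVLP2. Over members with Siglech the levels were 432, 649, 316 and 61.1 CPM, in the same order of libraries.

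The lower Irf7 of NEVLPcty was also seen outside the members. In B cells (barcodes with Cd79b and Ms4a1 and without Siglech or Cd3e, 91, 259, 43 and 28 per library) Irf7 was at 93.7, 128, 66.3 and 12.3 CPM. In cDC1 (with Clec9a and Xcr1 and without Siglech, Cd79b, Ms4a1 or Cd3e, 24, 94, 80 and 75) it was at 31.2, 56.0, 69.1 and 8.25 CPM. NEVLPcty was the lowest library in both.

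Other genes of the list differed in which perfused liver was low. Isg15, a ubiquitin-like modifier, was at 72.9, 159, 151 and 17.7 CPM, with free RNA levels of 4.0, 35.4, 60.4 and 12.1 CPM. It was 2.18-fold higher (1.72 to 2.8) in CS than in naive over all members, and 5.0-fold higher (3.2 to 8.14) over those with Siglech. NEVLPcty was 8.54-fold lower (5.28 to 14.8) than NEVLP2 in Isg15. Eif2ak2 (PKR), a sensor of double-stranded RNA, was at 44.2, 100.5, 155 and 36.5 CPM, highest in NEVLP2, and 4.23-fold lower (3.01 to 6.14) in NEVLPcty. Usp18, which shuts off the interferon receptor, was at 36.1, 81.4, 69.2 and 23.0 CPM. Stat2, a signal transducer of that receptor, was at 69.2, 77.1, 51.0 and 21.9 CPM. Parp14, a mono-ADP-ribosyltransferase, was at 50.8, 65.8, 58.3 and 28.2 CPM. NEVLPcty was the lowest library in all 5 genes.

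Other list genes were already lower in NEVLP2 than in CS. Ifi27 was at 365, 967, 493 and 272 CPM, 2.65-fold higher (2.39 to 2.94) in CS than in naive and 1.96-fold lower (1.83 to 2.11) in NEVLP2 than in CS, with free RNA levels of 20.2, 205, 80.7 and 65.4 CPM. Epsti1 was at 306, 425, 126 and 186 CPM, 3.36-fold lower (2.97 to 3.8) in NEVLP2 than in CS, and not lower in NEVLPcty, where its ratio to NEVLP2 was 1.47 (1.23 to 1.75). Sp100, a nuclear body protein, was at 40.5, 41.0, 11.4 and 10.4 CPM. Bst2 (tetherin), both a pDC surface molecule and an interferon response gene, stepped down through the libraries, at 2679, 2119, 1659.5 and 1296 CPM.

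Mx1, a GTPase against influenza viruses, turned direction with the cells without Siglech. It was at 90.5, 48.8, 21.5 and 0 CPM over all members, 1 naive cell holding 65.9% of the naive UMIs, and at 7.85, 32.1, 21.8 and 0 CPM over those with Siglech. The CS over naive ratio was 0.539 (0.396 to 0.730) over all members and 4.09 (1.89 to 10.1) over those with Siglech. It had 0 UMIs in NEVLPcty against 77 in NEVLP2, at least 6.86-fold lower at the floor of 3 UMIs. The 1 list gene that was higher in NEVLPcty, Lgals3bp, was at 28.7, 24.8, 3.91 and 54.2 CPM, with a ratio of 13.9 (7.59 to 27.1) that was 6.45 (3.02 to 14.2) over members with Siglech. Ifi47, an interferon-inducible GTPase outside the list, was at 244, 253, 611 and 163 CPM, 2.41-fold higher (2.15 to 2.7) in NEVLP2 than in CS and 3.75-fold lower (3.19 to 4.44) in NEVLPcty.

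**Figure D3:**
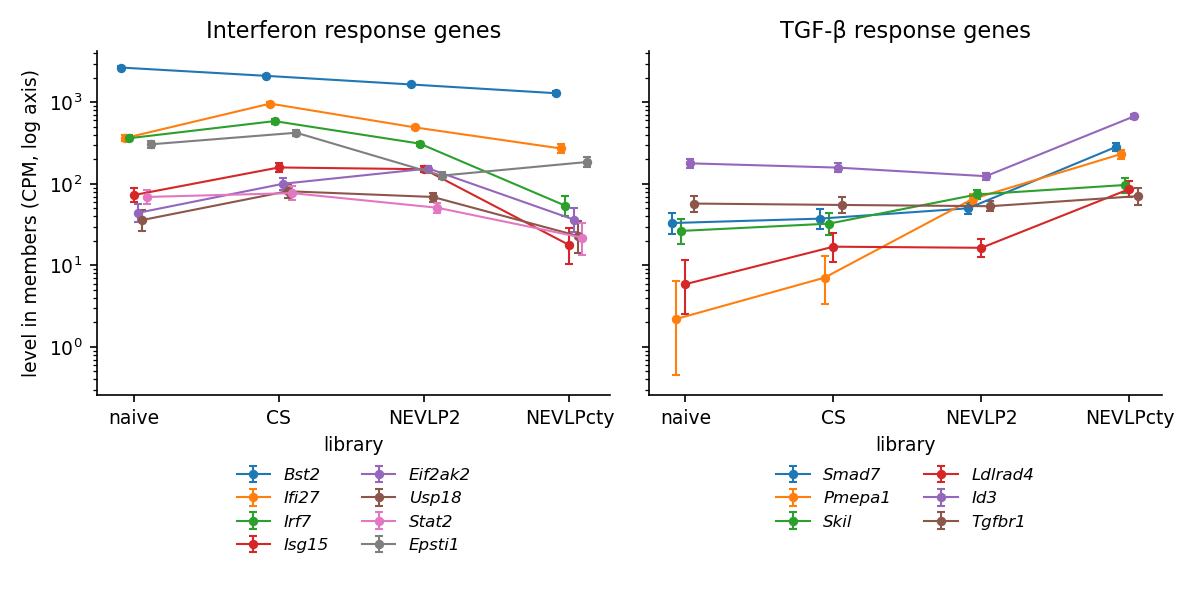
Levels in the members (CPM, log axis) of 8 interferon response genes (left) and 6 TGF-β response genes (right) in the 4 libraries, with exact Poisson 95% intervals as error bars, the lines only joining the points of a gene. Irf7 is at 54.2 CPM in NEVLPcty, its lowest library, and Smad7 at 285 CPM, its highest.

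The interferon-stimulated response element is the promoter sequence bound by complexes of Stat2 with Irf9 and by other IRF factors, and its core reads GAAANNGAAA. This core was searched on both strands, overlapping matches allowed, in the 250 bases upstream of the start site in RefSeq sequence of build GRCr8. It was present in 1140 of 33469 promoters (3.41%), in 21 of the 29 interferon response genes that had a promoter there (72.4%), in 7 of 16 MHC class I and peptide loading genes (43.8%), in 4 of 9 interferon genes (44.4%) and in 2 of 8 pDC transcription factors (25%). In the TGF-β response list it was in 0 of 15 genes and among NF-kB targets in 0 of 17. The windows printed here are 30 bases around the core, shown for 7 of the list genes whose values are described, 5′ to 3′ on the strand that reads GAAANNGAAA, with the core in capitals.
Irf7: tgcgtctcggGAAAATGAAAcctaaactgt
Eif2ak2: agtccgccggGAAAACGAAAcagagagaac
Ifi27, outer match: gagagcagggGAAAAGGAAAcctctccttg
Ifi27, inner match: gagagctgggGAAATGGAAActtacctcat
Parp14: tccaggaaatGAAAGTGAAAgaagtaagtt
Bst2: ccctttccagGAAAATGAAActgaaaggtg
Epsti1: tggttaaagaGAAATCGAAActcagctgtt
Lgals3bp: gtgttttctgGAAATCGAAActagactagg

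The Irf7 window is chr1:205800073-205800102 (+ strand shown, gene on -), 69 bases before the start site used and inside the annotated span of Irf7. Eif2ak2 is chr6:21941128-21941157 (+), 16 bases before, so the window's end runs into the gene, and LOC134479106 is annotated there too. The Ifi27 windows are chr6:128355133-128355162 and chr6:128355218-128355247 (both +), 169 and 84 bases before, and Parp14 is chr11:78408048-78408077 (+), 76 bases before. Bst2 is chr16:18255079-18255108 (gene and shown strand -), 131 bases before, with another match that overlaps it at 125, and Epsti1 is chr15:59693356-59693385 (+), 35 bases before and inside the annotated span of Epsti1. Lgals3bp is chr10:104127879-104127908 (gene and shown strand -), 50 bases before. No annotated gene lies under the Ifi27, Parp14, Bst2 and Lgals3bp windows.

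List genes with the core and without it both held calls. Between NEVLPcty and NEVLP2, 4 of the 10 measured genes with the core were 2-fold lower (1 higher, median log2 ratio -0.87), as were 3 of the 6 without it (median -0.68). Between CS and naive, 4 of 12 with the core were higher (1 lower, median 0.45) and 1 of 6 without it (median 0.09). Epsti1 and Eif2ak2 both hold a core, and NEVLP2 over CS was 0.298 (0.263 to 0.337) for Epsti1 and 1.54 (1.28 to 1.86) for Eif2ak2. A match is a description of the sequence and does not show a bound site.

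Cold storage went with few differences from naive, 142 genes being 2-fold higher and 157 lower. Ddit4 (REDD1), an inhibitor of mTORC1 that glucocorticoids and low oxygen raise, was at 93.5, 435, 171 and 577 CPM, 4.65-fold higher (3.83 to 5.67) in CS than in naive. Its level in cDC1 was 12.9, 28.4, 50.1 and 46.4 CPM, below that of members in each library. Txnip, which binds thioredoxin and curbs glucose uptake, was at 164, 327, 339.8 and 851 CPM, lowest in naive. Hist1h1e, a linker histone, was at 67.7, 218, 246 and 493 CPM, 3.22-fold higher (2.54 to 4.11) in CS, and B cells had 84.9, 214, 282 and 279.6 CPM. Hs3st3a1, a heparan sulfate sulfotransferase, was at 155, 355, 290.1 and 126 CPM, 2.3-fold higher (1.95 to 2.71) in CS, and at 0 in the B cells of all 4 libraries.

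The cannabinoid receptor gene Cnr2 was higher in CS at low counts, with 5, 48, 10 and 9 UMIs and a ratio of 9.23 (3.69 to 29.7). Ctnnal1 had 8, 42, 16 and 2 UMIs and a ratio of 5.05 (2.34 to 12.4). Genes are named here by a fixed rule, the 10 in each direction ranked first by the interval bound nearest 1. The rest of the 10 higher in CS were the loci AABR07035539.1, LOC108351137, AABR07052519.1, LOC100360491 and AABR07000398.1, with ratios from 2.03 to 14.8.

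Of the 10 genes ranked lowest in CS, 5 were high mainly in the naive cells without Siglech. Fgl2, a secreted protein of macrophages, was at 152, 23.4, 44.4 and 103 CPM over all members, 6.52-fold lower (4.5 to 9.73) in CS than in naive, but at 18.7, 11.0, 39.9 and 17.5 CPM over those with Siglech. The other 4, Gpnmb, Cd300le, Ctla2a and Ly49si1, were at 0, 3.93, 0.982 and 0 CPM in the naive members with Siglech against 39.7, 58.2, 104 and 91.3 CPM in all naive members. For Ctla2a the direction turned, CS over naive being 0.184 (0.117 to 0.279) over all members and 11.2 (1.7 to 473) over those with Siglech. Ccl3, a chemokine, was 6.37-fold lower (4.97 to 8.26) in CS over all members and 4.28-fold lower (2.21 to 8.94) over those with Siglech. The locus AABR07018078.1 was 6.24-fold lower (3.71 to 11.1) over all members and 3.63-fold lower (1.72 to 8.35) over those with Siglech. With Siglech required, 63 genes were 2-fold lower in CS in place of 157, and 129 higher in place of 142.

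The other 3 genes were high in naive over all its barcodes. Rpl30l1 had 93 UMIs in naive members and 0 in CS members, at least 32.2-fold lower at the floor of 3 UMIs, and over all kept barcodes it was at 56.1, 0.345, 0.307 and 0.194 CPM. LOC100362339 was at 73.6, 8.49, 8.65 and 12.5 CPM in members and 65.2, 6.59, 7.73 and 9.08 CPM over all kept barcodes. RGD1562402 was at 39.0, 3.54, 2.79 and 5.22 CPM in members and 31.8, 2.53, 1.84 and 2.08 CPM over all kept barcodes. All 3 were thus high in the naive library alone, in members and in all barcodes alike.

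Warm perfusion went with more differences, 598 genes being 2-fold higher and 840 lower in NEVLP2 than in CS. Xcl1, the chemokine for which cDC1 have the receptor Xcr1, was at 76.6, 5.66, 172 and 30.3 CPM, 30.5-fold higher (15.4 to 70.8) in NEVLP2 than in CS, and seen in 13, 8, 99 and 8 members. In NEVLPcty 1 cell held 62.1% of its UMIs, and the level over members with Siglech was 36.3, 6.27, 171 and 12.5 CPM. Cd69, an early activation antigen that holds cells in tissue, was at 16.2, 6.37, 164 and 41.7 CPM, with a ratio of 25.8 (13.5 to 56.6). Bcl2l11 (BIM), which promotes apoptosis, was at 9.57, 3.54, 100.4 and 15.6 CPM, with a ratio of 28.4 (12.0 to 87.9). All 3 were lower in NEVLPcty than in NEVLP2, with ratios of 0.175 for Xcl1, 0.254 for Cd69 and 0.156 for Bcl2l11. In the cells with Siglech those of Xcl1 and Bcl2l11 were lower still, 0.0730 and 0.0873.

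Of the other genes on the higher side, Bcl3, Errfi1 and Atp2b4 were high in NEVLPcty too. Bcl3, an atypical IκB protein, was at 28.7, 16.3, 243 and 213 CPM, with a NEVLP2 over CS ratio of 14.9 (9.88 to 23.7). Errfi1, a brake on EGF receptors, was at 16.9, 13.4, 115 and 156 CPM, with a ratio of 8.55 (5.4 to 14.3). Atp2b4, a plasma membrane calcium pump, was at 54.5, 65.1, 381 and 289 CPM, with a ratio of 5.85 (4.73 to 7.3). Others were lower in NEVLPcty than in NEVLP2. The survival kinase gene Pim2 was at 10.3, 5.66, 59.4 and 16.7 CPM, the cyclin gene Ccnd2 at 10.3, 9.2, 77.5 and 38.6 CPM and Socs1, an inhibitor of JAK kinases, at 11.0, 5.66, 63.0 and 20.9 CPM, all 3 highest in NEVLP2. Atp2b4 was low in the other cells compared, at 0, 0.400, 1.66 and 8.77 CPM in cDC1 and 5.07, 5.45, 4.74 and 18.4 CPM in B cells.

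NF-kB is a factor of inflammatory activation, and several of its targets were higher in NEVLP2 than in CS. In NEVLP2 against CS 9 of 19 were 2-fold higher and 0 lower (median log2 ratio 0.98), where 8.76% and 12.3% of all genes were. Between NEVLPcty and NEVLP2 0 of 19 were called either way (median 0.07), where 5.2% and 5.14% of all genes were. With Siglech required 0 of 18 were higher and 2 lower (median -0.24), where 4.36% and 5.25% of all genes were called. Nfkb1, a subunit of NF-kB, was at 132, 125, 304 and 236 CPM and Nfkb2, another, at 20.6, 22.6, 111 and 66.8 CPM. The inhibitor of apoptosis Birc3 was at 4.42, 9.2, 87.6 and 62.6 CPM, with free RNA levels of 0.716, 1.2, 33.4 and 21.5 CPM. All 3 were higher in both perfused livers than in naive and CS.

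Several IL-10 and STAT3 response genes were higher in NEVLP2, which had no added IL-10. In NEVLP2 against CS 8 of 13 genes were higher and 0 lower (median 1.13), against 8.76% and 12.3% of all genes. In NEVLPcty against NEVLP2 1 of 15 was higher (Nfil3) and 4 were lower (Pim1, Socs3, Socs1, Ccnd2), with a median of -0.19, against 5.2% and 5.14% of all genes. Stat3, the factor that IL-10 activates, was at 81.0, 97.0, 278 and 221 CPM. Its feedback inhibitor Socs3 was at 0, 3.54, 34.0 and 10.4 CPM, 3.26-fold lower (1.71 to 6.97) in NEVLPcty than in NEVLP2, and 9.21-fold lower (3.08 to 45.3) over members with Siglech. Pim1, another STAT target, was 3.3-fold lower (1.45 to 9.28) in NEVLPcty, and 5.51-fold lower (1.81 to 27.4) over members with Siglech. Both were lower in the liver that received IL-10. Il21r, a receptor gene on the list, was at 81.0, 91.3, 162 and 309.8 CPM, highest in NEVLPcty. The receptor gene Il10ra was at 7.36, 7.08, 8.37 and 12.5 CPM, on 10, 10, 30 and 12 UMIs, and Il10rb at 43.4, 65.1, 49.9 and 42.8 CPM.

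Several glycolysis and hypoxia genes were also higher in NEVLP2. In NEVLP2 against CS 7 of 14 were higher and 0 lower (median 0.98), beside 8.76% and 12.3% of all genes. In NEVLPcty against NEVLP2 2 of 16 were higher (Pkm, Vegfa) and 2 lower (Hk2, Tpi1), with a median of 0.01, beside 5.2% and 5.14% of all genes. With Siglech required 0 of 14 were higher and 2 lower (median -0.18), beside 4.36% and 5.25% of all genes. Ldha, lactate dehydrogenase, was at 503, 473, 1039.9 and 889 CPM. Pgam1, phosphoglycerate mutase, was at 287, 249, 661 and 595 CPM and the glucose transporter Slc2a1 at 40.5, 43.9, 112 and 119 CPM. In B cells Pgam1 was at 146, 183, 592 and 418 CPM and in cDC1 at 257, 235, 632 and 614 CPM, again higher in both perfused livers. Of 10 integrated stress response genes 5 were higher in NEVLP2 than in CS (Asns, Atf4, Cebpb, Phgdh, Trib3) and 1 was lower (Atf3), beside the same 8.76% and 12.3%. Atf4, the factor at the centre of that response, was at 315, 212, 618 and 401 CPM, and its target Trib3 at 7.36, 16.3, 54.4 and 72.0 CPM.

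On the lower side of NEVLP2 against CS stood Pycard (ASC), the adaptor of inflammasomes, at 350.4, 396, 14.8 and 41.7 CPM, 26.8-fold lower (20.2 to 36.2) and seen in 44 of 273 NEVLP2 members against 107 of 119 in CS. B cells had Pycard at 257, 249, 16.6 and 27.7 CPM and cDC1 at 563, 777, 79.9 and 229 CPM. Pycard was therefore lowest in NEVLP2 in all 3 cell groups. Map2k6 (MKK6), a kinase of the p38 pathway, had 29, 54, 3 and 6 UMIs and was 45.7-fold lower (14.8 to 228). Kcnk7, a potassium channel gene, was at 109.7, 186, 21.8 and 21.9 CPM, 8.55-fold lower (6.62 to 11.2), and at 0 in the cDC1 of all 4 libraries. Ptp4a3, Tep1, Aldh3b1, Pik3ip1 and Tm6sf2 made up the rest of the named genes apart from Cxcr3 and Tsc22d3, from 12.0-fold to 21.6-fold lower.

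Receptors that place cells in tissue were counted next. Of 11 trafficking receptors measured between NEVLP2 and CS 1 was higher (S1pr1) and 4 were lower, among them Cxcr3, Itgb7 and Cxcr4, with a median of -0.52, where 8.76% and 12.3% of all genes were called. With Siglech required 1 was higher and 3 lower, where 8.53% and 12.2% of all genes were called. In NEVLPcty against CS 1 of 8 was higher (Cxcr4) and 5 lower, among them Ccr9, Cxcr3 and Itgb7, where 8.05% and 12.3% of all genes were called. Cxcr3, the receptor for interferon-induced chemokines, was at 120.0, 169.8, 12.8 and 23.0 CPM, 13.2-fold lower (9.62 to 18.6) in NEVLP2 than in CS. The integrin chain Itgb7 was at 81.7, 53.1, 5.3 and 16.7 CPM. Both perfused livers lay under naive and CS in both genes. cDC1 had Cxcr3 at 75.4, 145, 2.9 and 10.8 CPM, low in the same libraries.

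Genes of the glucocorticoid response were divided, with hydrocortisone in the perfusate of both perfused livers. In NEVLP2 against CS 3 of 16 were higher (Errfi1, Fkbp5, Mt2A) and 6 lower (Ddit4, Dusp1, Pik3ip1, Rhob, Sgk1, Tsc22d3), with a median of -0.01, against 8.76% and 12.3% of all genes. With Siglech required the counts were 3 and 6 of 15 and the median turned to 0.089, against 8.53% and 12.2% of all genes. Fkbp5, a classical target, was at 30.9, 26.9, 89.5 and 103 CPM, 3.33-fold higher (2.37 to 4.79) in NEVLP2. Tsc22d3 (GILZ), another, was at 102, 132, 15.3 and 56.3 CPM, 8.63-fold lower (6.35 to 11.9) in NEVLP2 than in CS and 3.67-fold higher (2.48 to 5.45) in NEVLPcty than in NEVLP2. In NEVLPcty against NEVLP2 6 of 15 were higher (Txnip, Sgk1, Rhob, Dusp1, Ddit4, Tsc22d3) and 1 lower (Mt2A), with a median of 0.55, against 5.2% and 5.14% of all genes. With Siglech required 5 of 13 were higher and 2 lower (median 0.34), against 4.36% and 5.25% of all genes. Ddit4 was 3.37-fold higher (3.0 to 3.78) there.

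**Figure D4:**
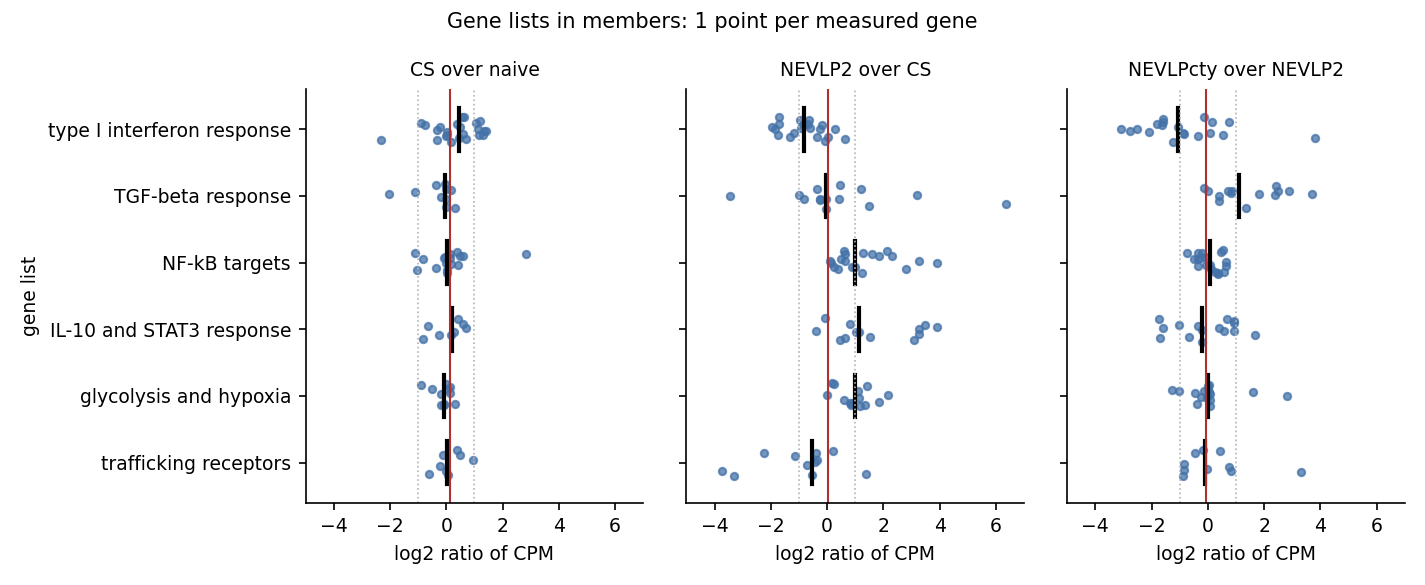
Log2 ratio of CPM in the members (horizontal axis) for each measured gene of 6 gene lists, in the 3 comparisons. Black bars mark list medians, red lines the median over all genes and dotted lines a 2-fold ratio, and the TGF-β list in NEVLPcty over NEVLP2 has its median at 1.11.

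With IL-10 and TGF-β in the perfusate, several TGF-β response genes were higher. In NEVLPcty against NEVLP2 7 of 14 were 2-fold higher (Tgif1, Pmepa1, Ldlrad4, Id3, Smad7, Id2, Id1) and 0 lower (median log2 ratio 1.11), where 5.2% and 5.14% of all genes were. Over members with Siglech 6 of 13 were higher and 0 lower (median 0.79), where 4.36% and 5.25% of all genes were called. In NEVLPcty against CS 8 of 13 were higher and 0 lower (median 1.90), where 8.05% and 12.3% of all genes were called. NEVLP2 against CS had 4 of 14 higher, among them Skil, Bhlhe40 and Pmepa1, and 1 lower (Id1), with a median of -0.05, beside 8.76% and 12.3% of all genes. With Siglech required the median turned to 0.24, with 4 of 12 higher and 1 lower, beside 8.53% and 12.2% of all genes. Of all genes measured between NEVLPcty and NEVLP2, 334 were 2-fold higher and 330 lower.

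The feedback inhibitors of the TGF-β pathway were among them. Smad7, which blocks the receptor, was at 33.1, 37.5, 50.2 and 285 CPM, 5.67-fold higher (4.68 to 6.89) in NEVLPcty than in NEVLP2, and seen in 60 of 71 NEVLPcty members against 100 of 273 in NEVLP2. Naive, CS and NEVLP2 lay close together and NEVLPcty far above. B cells had Smad7 at 53.2, 44.8, 49.7 and 267 CPM and cDC1 at 65.7, 98.0, 175 and 212 CPM. Pmepa1, which holds back SMAD activation, was at 2.21, 7.08, 65.3 and 232 CPM, so that NEVLP2 was 9.22-fold above (4.93 to 19.5) CS and NEVLPcty another 3.55-fold above (2.94 to 4.28) NEVLP2. Ldlrad4, a relative of Pmepa1 with the same role, was at 5.89, 17.0, 16.5 and 86.6 CPM, with a ratio of 5.26 (3.72 to 7.48), and its NEVLPcty level was 21.5 CPM in B cells and 9.28 CPM in cDC1. Skil, a co-repressor of SMADs, was at 26.5, 32.6, 74.2 and 97.0 CPM, already higher in NEVLP2.

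The Id genes, inhibitors of E proteins such as Tcf4, were higher in NEVLPcty than in NEVLP2. Id3 was at 179, 159, 124 and 673 CPM, 5.41-fold higher (4.79 to 6.12) in NEVLPcty than in NEVLP2, and over members with Siglech at 33.4, 148, 122 and 751 CPM. Id1 was at 67.0, 51.7, 4.74 and 61.6 CPM, with a ratio of 13.0 (7.46 to 23.8), and over members with Siglech at 0, 36.8, 4.52 and 69.9 CPM. NEVLPcty thus had the most Id3 and Id1 in the cells with Siglech, whereas over all members naive Id1 was as high. Id1 had 59 UMIs in NEVLPcty and 17 in NEVLP2. Of the TGF-β receptor genes, Tgfbr1 was at 57.4, 55.2, 53.3 and 70.9 CPM and Tgfbr2 at 19.9, 30.4, 52.7 and 38.6 CPM.

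Other genes higher in NEVLPcty were named by the rule or belong to other lists. Degs2, an enzyme of ceramide synthesis, was at 1.47, 7.08, 33.8 and 266 CPM, 7.88-fold higher (6.32 to 9.87) in NEVLPcty than in NEVLP2, and at 12.3 and 1.55 CPM in NEVLPcty B cells and cDC1. Spsb1, an adaptor of a ubiquitin ligase, was at 3.68, 2.12, 15.3 and 134 CPM, 8.7-fold higher (6.3 to 12.2), and at 0 in both of those cell groups in NEVLPcty. Cxcr4, the receptor that retains cells in bone marrow, was at 64.8, 60.2, 27.6 and 271 CPM, 9.82-fold higher (7.76 to 12.5) in NEVLPcty, and reached 273 CPM in cDC1 against 30.2 CPM in NEVLP2. Zfp36l2, an mRNA decay factor, was at 216, 351, 86.2 and 654 CPM, with a ratio of 7.59 (6.61 to 8.72). Herpud1, of the endoplasmic reticulum stress response, was at 82.4, 141, 163 and 448 CPM. Havcr2 (TIM-3), an inhibitory receptor of pDCs, was at 9.57, 6.37, 7.53 and 60.5 CPM, and at 5.89, 3.92, 7.63 and 33.7 CPM over members with Siglech, highest in NEVLPcty in both.

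Some of the 10 highest ranked ratios rested on the cells without Siglech. The NEVLPcty over NEVLP2 ratio of Ifitm1 was 6.06 (5.47 to 6.71) over all members and 1.36 (1.14 to 1.63) over those with Siglech, and that of Il1b was 6.41 (5.56 to 7.4) and 2.61 (2.16 to 3.15). The Il1b level over members with Siglech was 0, 3.14, 86.5 and 226 CPM and its free RNA level 6.53, 14.2, 157 and 49.9 CPM. For Dusp2 the ratio was 9.35 (5.31 to 17.2) over all members and 0.883 (0.164 to 3.12) over those with Siglech, so that its direction turned. For Nr4a2 it was 8.45 (5.29 to 13.8) and 2.43 (1.05 to 5.31).

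Genes lower in NEVLPcty than in NEVLP2 included surface molecules of the members. LOC24906, given by RefSeq as Lypd8l1, was at 1636, 1812, 1091 and 299 CPM, 3.64-fold lower (3.23 to 4.12), and at or near 0 in B cells and cDC1 of all 4 libraries. Nrp1 (neuropilin 1), a pDC surface receptor, was at 113, 128, 259.7 and 59.5 CPM, 4.37-fold lower (3.34 to 5.81). Kdr, the VEGF receptor gene best known from endothelium, was at 675, 1212, 2087 and 611 CPM in members, 3.41-fold lower (3.14 to 3.72) in NEVLPcty, and seen in 59, 112, 268 and 61 members. It was at 900.2, 1312, 2109.9 and 712 CPM in the members with Siglech and at 0, 284, 403 and 95.5 CPM in those without it, and its free RNA level was 4.07, 121, 34.3 and 38.6 CPM. Kdr was thus high in the Siglech cells of each library. Cd200, a ligand that restrains myeloid cells, was at 88.3, 102, 191 and 50.1 CPM, 3.82-fold lower (2.85 to 5.23). Cited2, a transcriptional co-regulator induced by low oxygen, was at 133, 110.4, 589.7 and 122 CPM, 4.83-fold lower (4.01 to 5.87). The loci AABR07030590.1 and AABR07041403.1 were 6.06-fold lower (3.88 to 10.0) and 11.3-fold lower (3.79 to 55.6).

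Antigen presentation is the other main task of dendritic cells. In NEVLPcty against NEVLP2 0 of 15 MHC class I and peptide loading genes were called (median -0.22), and of 8 MHC class II genes 1 was higher (Ciita) and 0 lower (median 0.53), or 0 of 7 over members with Siglech (median -0.02). Of 22 unfolded protein and secretory genes 1 was higher (Herpud1) and 1 lower (Selenos), with a median of -0.47. Of all genes 5.2% and 5.14% were called there, and 4.36% and 5.25% over members with Siglech. Of 7 maturation and costimulation genes in NEVLP2 against CS 3 were higher (Cd40, Cd83, Socs1) and 0 lower, beside 8.76% and 12.3% of all genes. Cd83, a marker of mature dendritic cells, was at 74.3, 40.3, 136 and 79.3 CPM, and over members with Siglech at 39.3, 23.5, 135 and 39.9 CPM.

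Gzmb (granzyme B), a known pDC product, came mostly from members without Siglech. It was at 8.1, 10.6, 90.7 and 12.5 CPM over all members and at 0.982, 2.35, 5.37 and 0 CPM over those with Siglech. Transcripts of B and T cell genes that pDCs share were present in them, Ighm at 1213, 1276, 1246 and 977 CPM, Cd3g at 253, 179, 216 and 259.5 CPM and Jchain at 179.7, 135, 199 and 131 CPM over members with Siglech. In B cells Ighm was at 14197, 9118, 12241 and 4246 CPM, many times higher in each library.

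All of these comparisons rest on 71 to 273 cells per library. The NEVLPcty members are the fewest and the least read, at 958560 UMIs, which widens the intervals of every NEVLPcty ratio of a gene at low level.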

How the data were processed

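Single-cell libraries of 4 livers were made with 10x Genomics reagents, per the labels' protocols. The authors deposited gene-by-barcode matrices of UMI counts, made with Cell Ranger, which is version 6.0.0 per the file headers and 2.1.1 per the submitters' processing notes. Neither labels nor headers name the genome build. Filters on cells were those given with the membership rule, and doublets were not removed in the main analysis. Counts were summed over members per library and scaled to CPM by their total, with no pseudocount. Exact intervals came from SciPy 1.17.1 under Python 3.11.15 (NumPy 2.4.6, pandas 2.3.3), and the calculations were tested on simulated counts. Members had 958560 to 3584796 UMIs per library, which sets the width of the intervals.

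The named genes are the rule's markers, members of the gene lists and, per comparison and direction, 10 genes ranked by the interval bound nearest 1. Ranked genes needed at least 50 member UMIs in the pair, at least 5 member cells in the higher library, no cell with over 30% of the counts and a free RNA part of at most 20%. Members and lists were chosen with earlier results of these data known. Promoters were RefSeq sequences of build GRCr8, matched by symbol. Alternatives covered the filters, the marker count, Siglech, doublet scores (Scanpy 1.11.5), thinning to 1500 UMIs, the UMI minimum per pair, TMM factors (edgeR 4.0.16 under R 4.3.3, used for scaling only) and equal weights per cell. Treatment of excluded genes (at most 1 UMI, or Clec4f left out) was added after seeing the data. Some genes of the lists are counted but not reported here by name. Figures were drawn with Matplotlib 3.10.9.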

Additional observations from a re-analysis of the deposited data

How the results depend on the processing

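No paired analysis was possible because each group had 1 library and the labels carry no replicate numbers, so that leaving out a replicate was not possible either. The share of members, in naive, CS, NEVLP2 and NEVLPcty order, was 4.97, 3.65, 7.92 and 3.30% of barcodes with Ptprc. Another alternative pooled the B, T, NK, Kupffer, neutrophil, endothelial and stellate or fibroblast markers. Ighm, Cd3g and Kdr, which the members with Siglech held, are in that pool. Removing members with UMIs of at least 3 genes of the pool, of whichever cell types, left 0.0606, 0.00926, 0.0295 and 0%. These were 2, 1, 3 and 0 cells, and gave no ratios. In naive the share was 1.82% with at least 4 markers and also with Siglech required, and 2.91% with at most 1 UMI of the excluded genes allowed. In CS it was 1.93% after thinning, 1.78% with 1 excluded UMI allowed and 1.73% without Clec4f among the excluded genes. In NEVLP2 it was 3.17% with a minimum of 1000 UMIs, 3.43% with 1 excluded UMI allowed and 3.16% without Clec4f. In NEVLPcty it was 0.473% with at least 4 markers and 0.338% after thinning.

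Counts of 2-fold genes moved most with the UMI minimum per pair. At 20 UMIs, CS over naive had 417 higher and 305 lower, NEVLP2 over CS 1431 lower, and NEVLPcty over NEVLP2 642 higher and 569 lower. At 200 UMIs the higher counts were 20, 305 and 103 and the lower counts 51, 200 and 114 in these 3 comparisons. CS over naive also had 235 higher without Clec4f among the excluded genes, and 57, 63 and 77 lower with at least 4 markers, with Siglech required and after thinning. The median log2 ratio of the interferon response list, CS over naive, was 1.26 after thinning and 0.18 with equal weights per cell, beside 0.12 over all genes under those weights. The direction turned for the cytokine and chemokine list, CS over naive, at 0.082 without Clec4f among the excluded genes. Log2 ratios of Ctla2a (CS over naive) were 3.5, 3.48 and 3.93 with at least 4 markers, with Siglech required and after thinning, and those of Dusp2 (NEVLPcty over NEVLP2) were -0.085, -0.18 and -0.96. For Il1b the NEVLPcty over NEVLP2 value was -3.58 after thinning. The cause of these changes was not tested. For every ratio, median and count of genes given after thinning, thinning only chose the members, whose full counts were then summed. In CS 162 barcodes were members after thinning, and 90 of them were also members without it.

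Of 152 ratios of named genes, 146 kept their direction with Siglech required, 146 with at least 4 markers and 142 after thinning. With the barcodes of highest doublet score removed 151 kept it, under TMM factors 152 and with equal weights 150. In the same order 28, 34, 42, 9, 0 and 13 moved by over 1.5 times, and 9, 10, 15, 5, 2 and 5 of 116 values lost their 2-fold call. Depth limits genes such as Tlr9, with 3 to 11 UMIs per library.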
